A study of Homo sapiens with 8 samples.

Results

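Nascent transcription in RAS-induced senescent fibroblasts was compared with that of control fibroblasts over 27924 gene rows, all those of the fastGRO-seq table other than 21 rows of ribosomal RNA genes, out of 27945 rows. The cells were IMR90, a normal fibroblast strain from human fetal lung, given ER:RAS by retrovirus, a mutant H-RAS fused to the estrogen receptor that is active only while 4-hydroxytamoxifen (4-OHT) is present. Senescent cells carried shControl, a short hairpin RNA without a target, received 100 nM 4-OHT and were harvested on day 6. Control cells are labeled as wild type, without an shRNA and without senescence, and their treatment is given only as control, so the effects of senescence, of 4-OHT and of shRNA infection cannot be told apart. Each of these groups had 2 libraries, described by the study as biologically independent experiments. The knockdown groups of the study were not compared here. They entered the gene filter, the normalization and the estimate of the spread between replicates.

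Oncogene-induced senescence is a lasting arrest of the cell cycle that follows strong RAS signaling. RAS acts through the RAF, MEK and ERK kinases on ETS and AP-1 transcription factors, while the p53 and RB pathways keep E2F and its targets silent. Senescent fibroblasts also secrete cytokines, growth factors and proteases, the senescence-associated secretory phenotype (SASP). In fastGRO-seq, RNA polymerases that were at work when nuclei were isolated extend their RNA with 4-thio-UTP, and the labeled RNA is captured and sequenced. The reads therefore report ongoing synthesis along whole gene bodies, introns included, and not stored mRNA.

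The libraries held between 18494186 and 20306299 counts, of which 89.9% to 92.5% lay in the ribosomal RNA rows, so 1513930 to 1903261 counts described the rest. Values below are normalized counts, that is counts scaled to the mean effective library size of the 4 libraries after TMM normalization. They are not divided by gene length, so genes are compared between groups and not with each other. A fold change sets a gene against the remaining genes of its library, since no use was made of the Drosophila spike-in here. The counts do not separate the DNA strands, and 715 of the called genes share more than 5% of their span with another counted gene, so such genes share reads.

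Of 12823 genes with enough counts to be tested, 1695 were higher in senescent cells, or 13.2%, and 1702 were lower, or 13.3% (edgeR's quasi-likelihood test, Benjamini-Hochberg adjusted p below 0.05). The other 15101 rows were not tested, and 6423 of all rows had no count in any of the 8 libraries of the study. Rises reached further than falls. At least 4-fold changes numbered 380 upward and 179 downward, and at least 8-fold changes numbered 221 and 20, although 143 of the genes called higher and 51 called lower had at most 3 counts in both libraries of a group. The median log2 fold change was 1.04 among genes called higher, -1.06 among genes called lower and -0.04 over all genes tested. The even split of rises and falls belongs to the TMM scale. When counts were divided by library size alone, with ribosomal RNA in the total, the median of all genes moved to -0.53 and the calls became 752 higher and 5007 lower. Counts in gene lists under library size alone, given below, are to be read beside these totals of all 12823 genes. Both libraries of one group lay above both of the other in 1694 of the genes called higher and in all 1702 called lower, against 4029 and 4429 of all genes tested.

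**Figure D1:**
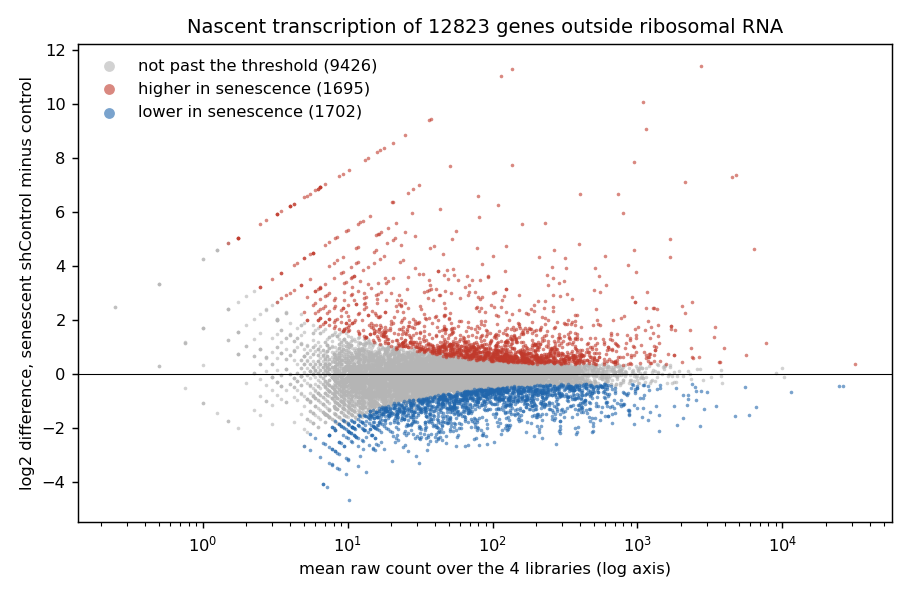
Log2 fold change of senescent shControl over control (vertical axis) against the mean count of the 4 libraries (horizontal log axis), 1 point per tested gene, with genes called higher in red, called lower in blue and the others in grey. Calls lie on both sides of 0, and the points above 0 reach larger sizes than those below it.

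Markers fixed for the tissue and for other cell types were read first. All 12 fibroblast markers were tested, and together they held 36481 and 34123 normalized counts in control and 22139 and 23920 in senescent libraries. Of these markers 8 fell and 1 rose, and in these bulk libraries fewer cells of a type and less RNA per cell cannot be told apart. VIM, which encodes the intermediate filament vimentin, was the marker that rose, with a log2 fold change of 0.44 (adjusted p = 0.0131, edgeR) that turned to -0.05 with library size alone. Epithelial, endothelial and leukocyte markers had few counts, though CLDN4 and TIE1, the tested epithelial and endothelial markers, were called higher (adjusted p = 0.0490 and 0.00163, edgeR). CLDN4 was at 0 and 1.75 normalized counts in control and 5.94 and 6.71 in senescent libraries, and TIE1 at 0 and 0 against 8.32 and 6.71. Their part in the results below was not tested. The summed level of the 8 epithelial markers was 0.890 and 3.50 in control and 8.32 and 6.71 in senescent libraries, 3 of them were at 0 in all 4 libraries, and no marker exceeded 6 counts in a library. For the 6 endothelial markers the sum was 9.79 and 8.76 against 32.1 and 17.9, 1 was at 0, and the highest single count was 10. The 8 leukocyte markers summed to 6.23 and 7.88 against 8.32 and 12.3, 2 were at 0, and none exceeded 6 counts.

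Markers of the senescent state were examined next. LMNB1, which encodes the nuclear lamina protein lamin B1, had 73.9 and 72.7 normalized counts in control and 13.1 and 16.8 in senescent libraries, a log2 fold change of -2.28 (SE 0.35, adjusted p = 1.26e-05, edgeR). MKI67, the gene of the proliferation antigen Ki-67, fell from 199 and 176 to 29.7 and 59.3. CDKN1A, which encodes the CDK inhibitor p21, rose from 409 and 373 to 863 and 833, a log2 fold change of 1.12. CDKN2B, the gene of the CDK inhibitor p15, rose by 2.31 on the log2 scale, but it lies wholly inside CDKN2B-AS1. CDKN2A, which encodes p16 and ARF, had 32.9 and 43.8 against 59.4 and 49.2, and did not pass the test (log2 0.50, adjusted p = 0.182, edgeR). HMGB2, a chromatin protein of proliferating cells, and CCNA2, the gene of cyclin A2, were at log2 fold changes of -1.05 and -0.82 and did not pass either (adjusted p = 0.0675 and 0.301, edgeR). HRAS, the family member in the ER:RAS construct, had 345 and 338 normalized counts in control and 607 and 590 in senescent libraries, a log2 fold change of 0.81, in which reads of the construct and of the gene itself cannot be told apart.

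The p53 list held no common direction. Of 32 tested p53 target genes 4 rose and 4 fell, or 12.5% each way against 13.2% and 13.3% of all genes, with a median log2 fold change of 0.03, and the falls numbered 3 without control replicate 1, 1 without control replicate 2, 1 without senescent replicate 1 and 2 without senescent replicate 2. Library size alone gave 4 higher and 12 lower. TNFRSF10B, a death receptor gene, rose from 248 and 251 to 648 and 574, SUSD6 rose by 1.22 and RRM2B, a ribonucleotide reductase subunit, rose by 1.19 on the log2 scale. PLK2, SESN1, DDB2 and TP53INP1 fell, with log2 fold changes of -0.85, -0.77, -0.76 and -0.55. MDM2, which encodes the ubiquitin ligase of p53, was at -0.38 and did not pass (adjusted p = 0.0531, edgeR).

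The 12 largest rises outside the SASP, among protein-coding genes averaging 100 counts or more, included cytokine, neuronal and metabolic genes. TNFSF15, a TNF family cytokine (hg19, chromosome 9, 117546915 to 117568408, minus strand), had 14.2 and 4.38 normalized counts in control and 2318 and 2036 in senescent libraries, a log2 fold change of 7.86 (SE 0.25, adjusted p = 4.31e-19, edgeR). GABRA2, a GABA receptor subunit (chromosome 4, 46245565 to 46392085, minus strand), rose from 8.01 and 13.1 to 503 and 533. NTNG1, which encodes the axon guidance protein netrin-G1 (chromosome 1, 107682540 to 108027521, plus strand), rose from 5.34 and 9.63 to 396 and 326. Control libraries thus held few reads over these 3 genes, while both senescent libraries held many. BMP2, a bone morphogenetic protein, rose from 27.6 and 20.1 to 616 and 547. TFPI2, a serine protease inhibitor, rose from 80.1 and 92.8 to 2181 and 1958. SLC6A15, a neutral amino acid transporter, rose from 62.3 and 62.2 to 1361 and 1222. Each of these genes was at least an order of magnitude apart between the groups.

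Metabolic genes stood among the same 12. KYNU encodes kynureninase of tryptophan breakdown, and rose from 24.0 and 21.0 to 495 and 413. BPGM, which makes 2,3-bisphosphoglycerate beside glycolysis, rose from 32.1 and 36.8 to 764 and 604. NAMPT, the rate-limiting enzyme of NAD salvage, rose from 141 and 160 to 2245 and 1883. SLC16A6, a monocarboxylate transporter family member, had a log2 fold change of 4.83 but lies wholly inside ARSG on the opposite strand. DCC, a netrin receptor, and PREX1, a Rac exchange factor, completed the 12 with log2 fold changes of 3.92 and 3.82.

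The 12 largest falls reached smaller sizes, from -2.58 to -2.11 on the log2 scale. CLDN11, a claudin of tight junctions (hg19, chromosome 3, 170136653 to 170152479, plus strand), fell from 443 and 412 to 54.7 and 87.3 (SE 0.21, adjusted p = 3.23e-10, edgeR). ROR2, a receptor for WNT5A (chromosome 9, 94484878 to 94712444, minus strand), fell from 158 and 162 to 21.4 and 34.7. DCN, the gene of the matrix proteoglycan decorin, fell from 761 and 728 to 122 and 220. In each of these genes the senescent library of replicate 1 lay below that of replicate 2. FBLN1, a matrix glycoprotein, had a log2 fold change of -2.15 and GPC6, a glypican, of -2.11. ANLN and DIAPH3, both actin regulators of cell division, had -2.20 and -2.14. SGCZ, MRVI1, TOX and CHRM2 lay between -2.37 and -2.14, and CHRM2 shares 79.7% of its span with an opposite-strand row.

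The order of the senescent replicates was not particular to these genes. Among the 1702 genes called lower, senescent replicate 1 was below replicate 2 in 1210, and among the 1695 called higher it was above replicate 2 in 1196. The corresponding counts for the control replicates were 800 and 762. Senescent replicate 1 therefore lay farther from control in most called genes, and without it 1066 genes were called higher and 763 lower. The part of this difference between libraries in any single result was not tested. For gene lists with at least 3 calls in a direction whose count moved by over 1.5 times when a library was left out, the counts without control replicate 1, control replicate 2, senescent replicate 1 and senescent replicate 2 are given below in this order.

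**Figure D2:**
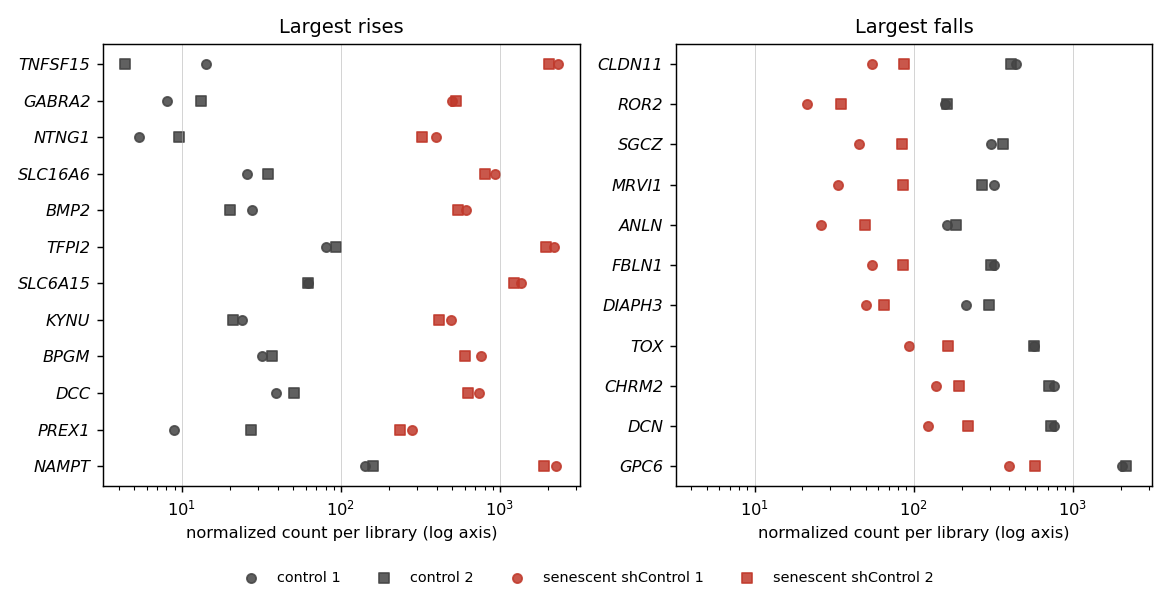
Normalized count per library (horizontal log axis) for the largest rises and falls reported, with control libraries in grey and senescent shControl libraries in red, circles for replicate 1 and squares for replicate 2. In every gene shown both libraries of one group lie on the same side of both libraries of the other.

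Most of the mitosis genes tested fell. Of 61 tested mitosis genes 45 fell and 0 rose, which is 73.8% of the list, with a median log2 fold change of -1.67, while 13.3% of all genes tested were called lower. NUSAP1, which encodes a spindle microtubule protein, fell from 31.2 and 35.0 to 2.38 and 4.48. KIF4A, a chromosome-bound kinesin, fell from 44.5 and 51.7 to 2.38 and 8.95. ASPM, a spindle pole protein gene, fell from 111 and 125 to 19.0 and 26.9. The control libraries were well above the senescent ones in all 3 genes, which carried few reads in senescent cells. BUB1B, a spindle checkpoint kinase gene, had a log2 fold change of -2.30, CDK1 had -2.74, TOP2A -2.27, FOXM1 -2.12, PLK1 -1.78 and CCNB1, the gene of cyclin B1, -1.24. Many of these genes had low counts, and the number of calls depended on the test, with 23 mitosis genes lower and 0 higher in DESeq2. Leaving out each library in turn left 23, 28, 19 and 31 lower, and library size alone gave 55.

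Mitotic promoters are known to hold CCAAT boxes and a CHR element (cell cycle genes homology region) near the start site. The DREAM complex and the factors NF-Y and B-MYB act at such promoters. Promoters from 250 bases before to 50 bases after the start site were taken from RefSeq (GRCh38.p14), which gave 1 for 10160 of the 12823 tested genes, and were searched on both strands for the letters CCAAT and TTTGAA. Among 51 mitosis promoters 70.6% held TTTGAA and 70.6% held CCAAT. Among the tested genes with a promoter the shares were 10.3% and 36.9%, and among all 27305 promoters listed the shares were 15.4% and 35.7%. Genes called lower held TTTGAA in 14.7% and genes called higher in 8.90%. These are matches of letters and not measured sites. The promoters of NUSAP1, KIF4A, ASPM and BUB1B are shown because these had the largest falls among mitosis genes averaging 20 counts or more and all 4 hold TTTGAA. Matches of either kind, on either strand, are in capitals.
NUSAP1: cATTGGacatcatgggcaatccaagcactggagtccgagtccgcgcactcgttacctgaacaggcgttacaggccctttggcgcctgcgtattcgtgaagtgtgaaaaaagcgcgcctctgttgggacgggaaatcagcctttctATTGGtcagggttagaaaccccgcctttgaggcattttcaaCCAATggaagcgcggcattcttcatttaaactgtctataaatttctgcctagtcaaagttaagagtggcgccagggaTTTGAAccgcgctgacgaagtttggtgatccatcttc
KIF4A: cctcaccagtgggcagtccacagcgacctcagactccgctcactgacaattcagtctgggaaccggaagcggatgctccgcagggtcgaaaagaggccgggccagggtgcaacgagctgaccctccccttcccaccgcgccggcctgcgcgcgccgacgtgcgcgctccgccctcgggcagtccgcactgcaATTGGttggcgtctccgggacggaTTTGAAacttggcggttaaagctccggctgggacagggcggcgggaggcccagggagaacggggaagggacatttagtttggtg
ASPM: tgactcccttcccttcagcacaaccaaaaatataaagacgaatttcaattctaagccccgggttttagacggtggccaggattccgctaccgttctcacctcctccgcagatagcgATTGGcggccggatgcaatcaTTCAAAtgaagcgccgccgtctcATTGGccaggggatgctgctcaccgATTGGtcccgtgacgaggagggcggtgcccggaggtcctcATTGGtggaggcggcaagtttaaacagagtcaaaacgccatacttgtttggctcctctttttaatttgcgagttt
BUB1B: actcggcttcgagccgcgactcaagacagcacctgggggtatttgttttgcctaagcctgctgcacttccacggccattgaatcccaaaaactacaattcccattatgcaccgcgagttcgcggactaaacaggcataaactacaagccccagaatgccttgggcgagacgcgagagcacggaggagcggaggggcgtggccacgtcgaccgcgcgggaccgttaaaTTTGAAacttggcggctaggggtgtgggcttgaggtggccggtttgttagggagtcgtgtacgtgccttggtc
In GRCh38.p14 these stretches are NUSAP1 at chr15:41332631-41332930 (plus strand), KIF4A at chrX:70289854-70290153 (plus strand), ASPM at chr1:197146620-197146919 (minus strand) and BUB1B at chr15:40160819-40161118 (plus strand). CCAAT on one strand reads ATTGG on the other, and TTTGAA reads TTCAAA. The promoter of BUB1B held TTTGAA and no CCAAT in this window.

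DNA replication genes changed less evenly. Of 50 tested replication and E2F genes 17 fell and 2 rose, with a median of -0.86. RRM2, the small subunit of ribonucleotide reductase, fell from 65.0 and 58.7 to 10.7 and 15.7. CLSPN, a replication checkpoint adaptor, and HELLS, a chromatin remodeler, had log2 fold changes of -2.09 and -1.81. E2F7 moved the other way. This gene, whose product is a repressor of E2F targets, rose from 62.3 and 73.5 to 466 and 426, a log2 fold change of 2.71 (SE 0.21, adjusted p = 6.28e-11, edgeR). PCNA, the sliding clamp, and MCM2, a helicase subunit, were at -0.58 and -0.92 and did not pass (adjusted p = 0.142 and 0.186, edgeR). DESeq2 called 6 replication genes lower and 1 higher, and the falls numbered 10, 8, 3 and 14 and the rises 1, 1, 1 and 1 as each library was left out. Library size alone gave 40 lower and 1 higher.

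Replication-dependent histone genes, which are transcribed in S phase without introns or poly(A) tails, fell in 26 of 41 tested cases and rose in 0, with a median of -1.67. They are short, and 24 further histone genes had too few counts to be tested. HIST1H3B, an H3 gene, fell from 41.0 and 37.7 to 7.13 and 5.60. HIST1H1C, a linker histone gene, fell from 97.1 and 110 to 20.2 and 33.6. HIST1H1D and HIST1H1B had log2 fold changes of -2.29 and -1.99. HIST2H2BE and HIST1H2BK, 2 members known to make polyadenylated mRNA too, were at 0.70 and 0.34 and did not pass (adjusted p = 0.0768 and 0.294, edgeR). The call count was sensitive to the test and libraries, with 7 lower in DESeq2 and 8, 13, 5 and 16 lower as each library was left out, against 35 with library size alone, and 1 was called higher when only the 4 libraries compared were fitted. Of 35 histone promoters 85.7% held CCAAT and 62.9% held TATAAA, which 6.11% of tested promoters held. The promoters of HIST1H3B and HIST1H1D are shown because they hold both, with CCAAT upstream of TATAAA and the matches in capitals.
HIST1H3B: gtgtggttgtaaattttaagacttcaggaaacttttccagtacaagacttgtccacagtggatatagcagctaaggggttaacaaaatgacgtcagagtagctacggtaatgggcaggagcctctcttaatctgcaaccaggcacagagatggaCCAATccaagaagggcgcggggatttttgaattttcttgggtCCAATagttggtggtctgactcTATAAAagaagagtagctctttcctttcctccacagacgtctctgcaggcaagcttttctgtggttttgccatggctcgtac
HIST1H1D: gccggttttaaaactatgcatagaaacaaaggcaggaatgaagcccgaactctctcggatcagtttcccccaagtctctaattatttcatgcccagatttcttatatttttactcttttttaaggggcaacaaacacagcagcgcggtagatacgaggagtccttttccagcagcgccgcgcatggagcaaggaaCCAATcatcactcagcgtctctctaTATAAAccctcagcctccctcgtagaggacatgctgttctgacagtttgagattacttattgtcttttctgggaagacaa
In GRCh38.p14 these stretches are HIST1H3B at chr6:26032050-26032349 (minus strand) and HIST1H1D at chr6:26234938-26235237 (minus strand). In RefSeq the same genes are called H3C2 and H1-3.

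DNA repair genes fell in 13 and rose in 5 of 60 tested cases, with a median of -0.33. These shares are 21.7% lower and 8.33% higher, against 13.3% and 13.2% of all genes. POLQ, the polymerase of theta-mediated end joining, fell from 58.8 and 56.0 to 8.32 and 12.3. FANCD2, BRIP1 and BRCA2, all of the Fanconi anemia and homologous recombination pathways, had log2 fold changes of -2.42, -1.73 and -1.67, while BRCA1 had -0.78 and did not pass (adjusted p = 0.148, edgeR). The rises were ERCC1 (1.48), LIG4 (0.96), NBN (0.77), ATR (0.55) and ATM (0.45). ERCC1, a nuclease subunit of excision repair, had 49.9 and 52.5 in control and 139 and 148 in senescent libraries and shares 20.7% of its span with CD3EAP. ATM turned to -0.05 with library size alone, which called 1 repair gene higher and 33 lower. With each library left out the falls numbered 10, 8, 5 and 9 and the rises 3, 3, 2 and 3.

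More chromatin genes fell than rose. Among 72 tested histone and DNA modifying enzymes 18 fell and 5 rose, or 25% and 6.94%. Among 39 cohesin, CTCF, lamina and condensin genes 11 fell and 4 rose, or 28.2% and 10.3%. Of all genes 13.3% fell and 13.2% rose, and the medians of these 2 lists were -0.17 and -0.34. The counts lower rose to 41 and 26 with library size alone, which called 1 of each group higher. The falls of modifying enzymes numbered 7, 13, 6 and 9 and their rises 4, 3, 3 and 3 as each library was left out. For the cohesin group the falls numbered 6, 10, 4 and 8 and the rises 2, 3, 2 and 2. TET1, which oxidizes methylcytosine, fell from 119 and 109 to 11.9 and 31.3. DNMT3A, EZH2 and DNMT1, which methylate DNA or histone H3, had log2 fold changes of -1.30, -1.24 and -0.60, and KDM6B, an H3K27 demethylase, had 0.62 without passing (adjusted p = 0.0809, edgeR). SYNE2, a linker of nucleus and cytoskeleton, had -2.01, NCAPG2 of condensin II had -1.91, CTCF had -0.75 and LMNA had -0.60, while RAD21 of cohesin was at -0.08 (adjusted p = 0.769, edgeR). HMGA2, an architectural protein of senescence-associated heterochromatin, rose from 1952 and 2052 to 5396 and 5016.

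**Figure D3:**
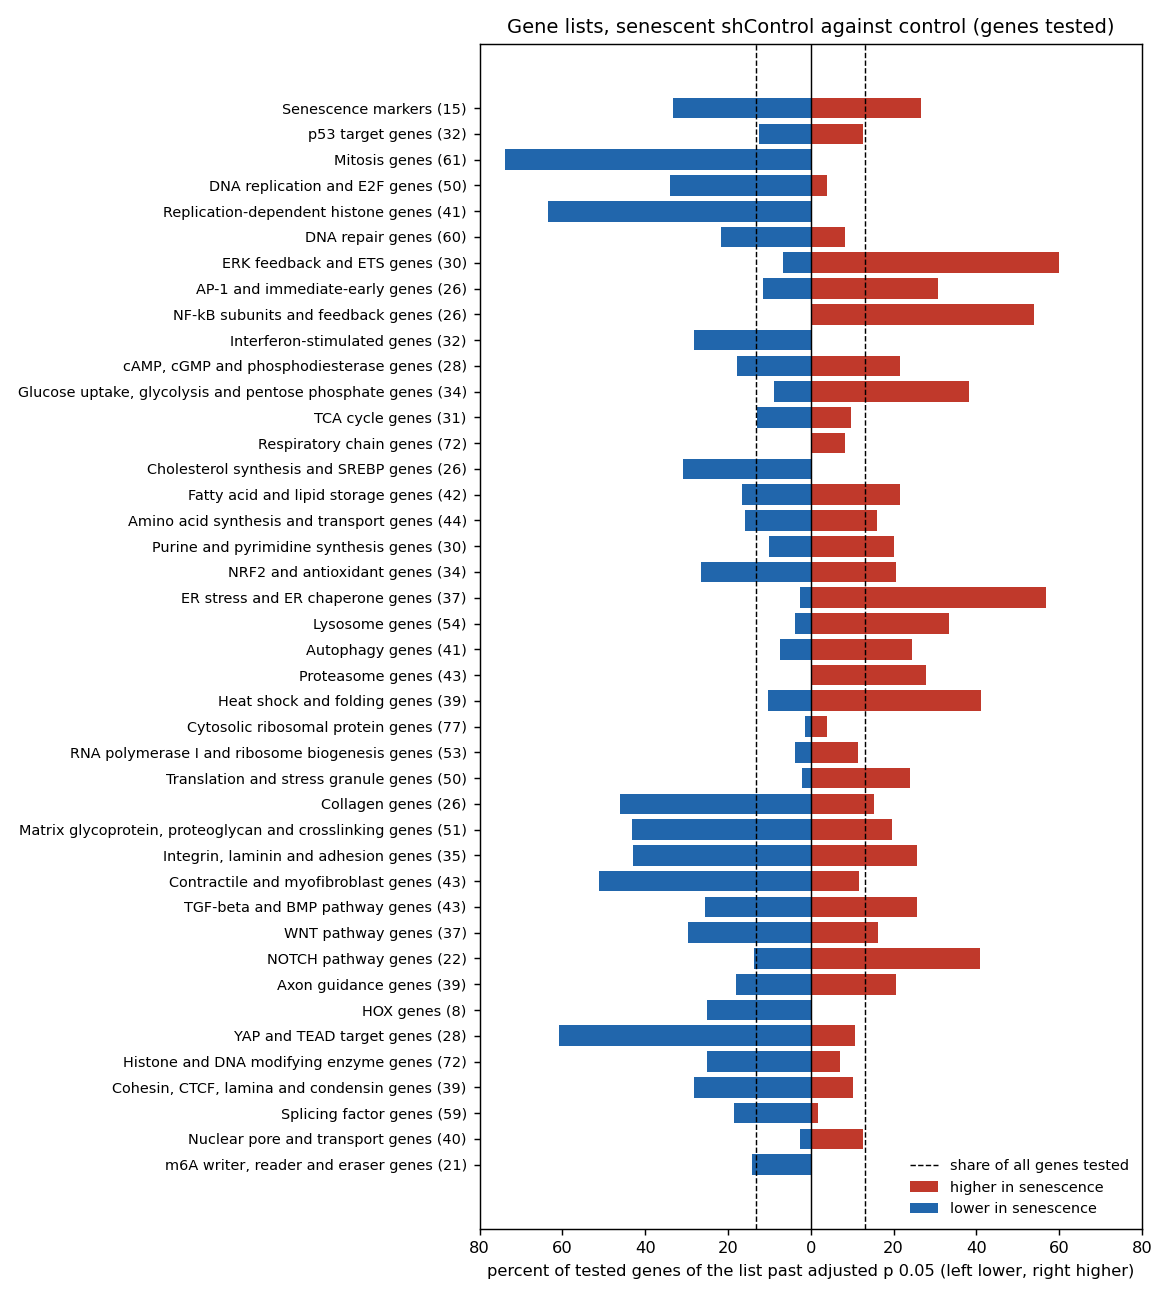
Share of tested members called higher (right) and lower (left) in each gene list, in percent, with the number tested after each name and dashed lines at the shares of all tested genes, 13.2% higher and 13.3% lower. Mitosis and histone genes reach farthest to the left, and ERK feedback and ER stress genes reach far to the right.

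Most of the ERK feedback and ETS genes tested rose. Of 30 tested ERK feedback and ETS genes 18 rose and 2 fell, or 60.0% and 6.67%, with a median of 0.82, and 12 were higher and 5 lower with library size alone. DUSP4 and DUSP6 encode phosphatases that inactivate ERK. DUSP4 had 1.78 and 0.876 normalized counts in control and 67.8 and 44.8 in senescent libraries, at least 21.2-fold higher when the floor of 3 counts per library is used. DUSP6 rose from 49.0 and 49.9 to 495 and 487, a log2 fold change of 3.31 (SE 0.16, adjusted p = 3.99e-15, edgeR). SPRY2, a Sprouty inhibitor of RAS signaling, rose from 32.9 and 29.8 to 194 and 178. TFPI2, described above, belongs to this list as a RAS-responsive gene and encodes no ERK regulator. All 3 negative regulators were separated from control by more than the spread of replicates. DUSP5, SPRY4 and SPRED1 had log2 fold changes of 2.35, 1.69 and 1.32. Of the ETS factors, ETS1 rose by 1.06 and ETV5 by 0.81, while ETV4 had 0.82 without passing (adjusted p = 0.178, edgeR). DUSP10, a phosphatase of stress-activated kinases, was among the falls, at -0.96.

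AP-1 and immediate-early genes were mixed, with 8 higher and 3 lower of 26 tested and a median of 0.35, and 1, 2, 1 and 2 lower as each library was left out. The list shares were 30.8% higher and 11.5% lower, against 13.2% and 13.3% of all genes. With library size alone 5 were higher and 6 lower. MAFF rose from 30.3 and 42.0 to 115 and 120, ATF3 by 1.58, EGR1 by 0.98, JUNB by 0.75 and JUN by 0.72 on the log2 scale. Among FOS family genes, FOS was at 0.09 and FOSL1 at -0.42 without passing (adjusted p = 0.876 and 0.0999, edgeR), and FOSL2 fell by 0.70. CTGF, a matricellular growth factor gene, fell from 547 and 475 to 221 and 245.

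NF-kB genes rose in 14 of 26 tested cases and fell in 0, with a median of 0.84. TNFAIP3, the deubiquitinase A20 that ends NF-kB signaling, rose from 23.2 and 35.0 to 150 and 148. NFKBIZ, an inducible nuclear IkB protein, rose from 87.3 and 92.8 to 415 and 369. RIPK2 and TNIP1 had log2 fold changes of 2.19 and 1.99, BIRC3 had 1.77, and NFKBIA, the gene of the inhibitor IkB-alpha, had 1.12. The subunits moved less, with NFKB2 at 0.81 and NFKB1 at 0.69, while REL (0.87) and RELA (-0.26) did not pass (adjusted p = 0.0717 and 0.495, edgeR). With library size alone 10 of the NF-kB genes were higher and 3 lower.

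Of 32 tested interferon-stimulated genes 9 fell and 0 rose, with a median of -0.93, and 19 more had too few counts. The falls numbered 5, 7, 6 and 6 as each library was left out and 22 with library size alone, and fitting only the 4 libraries compared called 2 higher. GBP1, a guanylate-binding GTPase gene, fell from 52.5 and 56.9 to 13.1 and 10.1. GBP2, PARP9 and IFITM2 had log2 fold changes of -1.59, -1.35 and -1.23, and STAT2 fell by 0.90. IRF1 and ISG15 were at 0.09 and 0.73 without passing (adjusted p = 0.872 and 0.249, edgeR).

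Many genes of the endoplasmic reticulum (ER) rose. Of 37 tested ER stress and ER chaperone genes 21 rose and 1 fell, or 56.8% and 2.70%, with a median of 0.55. HSPA5, which encodes the ER chaperone BiP, had 683 and 741 normalized counts in control and 1518 and 1513 in senescent libraries, a log2 fold change of 1.09 (SE 0.13, adjusted p = 2.67e-07, edgeR). ERN1, which encodes the stress sensor IRE1, rose from 44.5 and 35.0 to 160 and 148. MANF, an ER-resident factor, rose by 1.02, HSP90B1 by 0.82 and DDIT3, the gene of CHOP, by 0.90. The senescent replicates of HSPA5 differed far less from each other than from control. The other sensors, EIF2AK3 at -0.26 and ATF6 at 0.22, did not pass, nor did XBP1, the factor spliced by IRE1, at 0.20 (adjusted p = 0.348, 0.336 and 0.501, edgeR), and CREB3L1 fell by 0.94. These rises are moderate relative to the scale, and with library size alone 4 ER genes were higher and 6 lower. As each library was left out, 16, 16, 12 and 15 were higher. CCAAT, which forms part of the ER stress response element, was searched alone and not with the rest of that element. It occurred in 73.5% of 34 ER promoters against 36.9% of tested promoters. Lists with more falls than rises held it as well, in 75% of cholesterol, 85.7% of histone and 70.6% of mitosis promoters. The promoters of HSPA5 and MANF, with 5 and 3 matches, are shown with CCAAT in capitals.
HSPA5: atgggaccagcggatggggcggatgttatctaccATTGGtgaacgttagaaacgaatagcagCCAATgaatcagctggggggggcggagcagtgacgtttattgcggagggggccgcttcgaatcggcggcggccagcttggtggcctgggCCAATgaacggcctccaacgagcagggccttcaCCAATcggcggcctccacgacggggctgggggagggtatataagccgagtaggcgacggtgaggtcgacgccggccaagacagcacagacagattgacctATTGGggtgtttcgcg
MANF: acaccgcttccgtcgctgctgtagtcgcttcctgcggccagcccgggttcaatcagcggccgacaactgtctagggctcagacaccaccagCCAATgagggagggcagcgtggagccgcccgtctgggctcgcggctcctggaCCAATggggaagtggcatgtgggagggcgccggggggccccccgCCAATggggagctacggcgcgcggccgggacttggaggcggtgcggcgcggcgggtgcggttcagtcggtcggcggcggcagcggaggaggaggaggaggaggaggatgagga
In GRCh38.p14 these stretches are HSPA5 at chr9:125241294-125241593 (minus strand) and MANF at chr3:51385041-51385340 (plus strand). Over all called genes CCAAT occurred in 35.8% of those higher and 35.0% of those lower.

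Among genes of protein folding and breakdown more rose than fell. The shares higher were 41.0% of folding and 27.9% of proteasome genes, against 13.2% of all genes. Of 39 tested heat shock and folding genes 16 rose and 4 fell, with a median of 0.37. HSPA8, the constitutive HSC70, rose by 0.88, HSPD1 of mitochondria by 0.85 and HSP90AA1 by 0.74, whereas HSF1, the heat shock factor, was at 0.02 (adjusted p = 0.960, edgeR). HSPA2 and BAG2 fell, from 40.1 and 34.1 to 5.94 and 10.1 and from 73.0 and 98.1 to 29.7 and 36.9. Of 43 proteasome genes 12 rose and 0 fell, with a median of 0.39. PSMD2, a subunit of the regulatory particle, rose from 296 and 292 to 644 and 645, and PSMD8, PSMC6 and PSMC4 had log2 fold changes of 1.01, 0.93 and 0.85. With library size alone, 1 folding gene was higher and 10 lower, and 1 proteasome gene was higher and 5 lower. Of all 12823 genes 752 were higher and 5007 lower on that scale. The rises numbered 12, 13, 10 and 13 among folding genes and 7, 7, 5 and 8 among proteasome genes as each library was left out, and the falls of folding genes 2, 2, 2 and 3.

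Lysosomal genes rose in 18 and fell in 2 of 54 tested cases, with a median of 0.20. CTSS, the gene of the protease cathepsin S, had 1.78 and 4.38 normalized counts in control and 202 and 163 in senescent libraries, a log2 fold change of 5.83. PSAP, which encodes the saposin precursor, rose from 769 and 718 to 1965 and 1770. NPC1, a cholesterol exporter of the lysosome, rose from 61.4 and 64.8 to 195 and 219, and CTSL by 1.10 on the log2 scale. GLB1, the lysosomal beta-galactosidase behind the common stain for senescence, had 131 and 122 against 174 and 152 and did not pass (log2 0.37, adjusted p = 0.106, edgeR), and LAMP1 was at 0.12 (adjusted p = 0.550, edgeR). Of the transcription factors of lysosomal genes, MITF fell by 1.13 and TFEB was at -1.23 without passing (adjusted p = 0.131, edgeR). Their E-box, CACGTG, occurred in 29.4% of 34 lysosomal promoters, in 10.0% of tested ones and in 36.4% of 44 promoters of RNA polymerase I and ribosome biogenesis genes. Of 41 autophagy genes 10 rose and 3 fell, or 24.4% and 7.32% against 13.2% and 13.3% of all genes. MAP1LC3B was at 1.20, ATG16L1 at 1.04, BNIP3L at 0.99 and ULK2 at -0.98. On library size alone 6 lysosomal genes were higher and 11 lower, and 3 autophagy genes higher and 13 lower. Leaving out the libraries in turn left 10, 15, 8 and 15 lysosomal and 6, 7, 6 and 7 autophagy genes higher, and 3, 1, 2 and 2 autophagy and 1, 1, 1 and 2 lysosomal genes lower.

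More genes of glucose metabolism rose than fell. Of 34 tested glycolysis, glucose uptake and pentose phosphate genes, HK2 left undescribed here, 13 rose and 3 fell, with a median of 0.26, and the falls numbered 2, 3, 1 and 2 as each library was left out. The lactate transporters SLC16A3 and SLC16A1 rose from 181 and 161 to 429 and 455 and from 83.7 and 73.5 to 207 and 192. Among the enzymes, ENO2 had a log2 fold change of 1.18, LDHA 0.96, PGK1 0.80 and GAPDH 0.40, while PKM was at 0.25 without passing (adjusted p = 0.186, edgeR). GAPDH turned to -0.10 with library size alone, where 4 of the list were higher and 4 lower. The falls included TKT (-0.54), a transketolase, and SLC2A1 (-0.83), the glucose transporter GLUT1.

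Mitochondrial genes changed little. Of 72 tested respiratory chain genes 6 rose and 0 fell, or 8.33% and 0% against 13.2% and 13.3% of all genes. The median was 0.25, and with library size alone 0 were higher and 8 lower. The rises numbered 4, 5, 3 and 5 as each library was left out. UQCRH of complex III rose from 63.2 and 53.4 to 124 and 116, and NDUFB9, ATP5MC3 and NDUFV2 had log2 fold changes of 0.91, 0.79 and 0.67. Of 31 tricarboxylic acid cycle genes 3 rose and 4 fell, or 9.68% and 12.9% against 13.2% and 13.3% of all genes, with a median of 0.04. Library size alone gave 0 higher and 11 lower. As each library was left out, the rises numbered 0, 1, 1 and 1 and the falls 2, 3, 2 and 3. IDH1, the cytosolic isocitrate dehydrogenase, fell from 138 and 146 to 66.6 and 81.7, ME1 and PC had -0.84 and -0.83, MPC2, a subunit of the pyruvate carrier, had 0.93, and CS, citrate synthase, was at 0.20 (adjusted p = 0.484, edgeR).

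Of 26 tested cholesterol synthesis and SREBP genes 8 fell and 0 rose, with a median of -0.42. The falls numbered 6, 6, 4 and 7 as each library was left out, 5 in DESeq2 and 21 with library size alone. HMGCS1, which makes HMG-CoA, fell from 182 and 178 to 82.0 and 60.4. LSS, lanosterol synthase, fell from 371 and 356 to 153 and 160. ACAT2 had a log2 fold change of -1.51, and SREBF2 fell by 0.65. SQLE, squalene epoxidase, was at -0.06 and did not pass (adjusted p = 0.868, edgeR). Fatty acid genes split, with 9 higher and 7 lower of 42 and a median of 0.20, and 8, 5, 6 and 6 higher as each library was left out. The fatty acid shares were 21.4% higher and 16.7% lower, against 13.2% and 13.3% of all genes. Library size alone gave 4 higher and 13 lower fatty acid genes. SCD, the desaturase of stearoyl-CoA, fell from 840 and 827 to 227 and 338, FADS2 by 1.40, ACACA by 0.66 and FASN by 0.62 on the log2 scale. ELOVL4, an elongase of very long chains, rose from 19.6 and 41.2 to 113 and 119, whereas ELOVL2 fell by 1.92. CD36, a fatty acid transporter, rose from 4.45 and 2.63 to 48.7 and 30.2.

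Nucleotide and amino acid genes showed large changes of single enzymes and no common direction. Of 30 purine and pyrimidine genes 6 rose and 3 fell, or 20% and 10% against 13.2% and 13.3% of all genes. On library size alone 3 were higher and 9 lower. Of 44 amino acid genes 7 rose and 7 fell, or 15.9% each way, near the shares of all genes. The amino acid rises numbered 3, 5, 3 and 4 and the falls 5, 3, 1 and 5 as each library was left out, and library size alone gave 2 higher and 18 lower. NT5E, the ectonucleotidase CD73 that makes adenosine, rose from 305 and 348 to 1492 and 1399. PNP, purine nucleoside phosphorylase, rose from 8.90 and 7.88 to 85.6 and 67.1. AMPD3, an AMP deaminase, rose from 135 and 151 to 673 and 651. In all 3 genes the senescent libraries lay far above control. The 3 falls of this list were TYMS, PRPS1 and UCK2, at -1.34, -1.18 and -0.87 on the log2 scale. ODC1, the rate-limiting enzyme of polyamine synthesis, rose from 65.9 and 63.0 to 332 and 288, and SLC1A3, a glutamate transporter, had 2.33. PHGDH, the entry to serine synthesis, fell by 1.21, and ASNS, asparagine synthetase, rose by 1.07 but lies wholly within the read-through row CZ1P-ASNS. Among 34 NRF2 and antioxidant genes 7 rose and 9 fell, and as each library was left out 3, 2, 2 and 2 rose and 7, 5, 3 and 7 fell. The NRF2 and antioxidant shares were 20.6% higher and 26.5% lower, against 13.2% and 13.3% of all genes. Library size alone gave 1 higher and 17 lower. AKR1B1, an aldose reductase, rose from 362 and 371 to 1077 and 1019, whereas AKR1C1, ABCC1, NQO1, SLC7A11 and NFE2L2 itself fell, with log2 fold changes of -1.40, -0.94, -0.91, -0.78 and -0.54.

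Genes of the ribosome and of translation moved by little. Among ribosomal protein genes 3.90% were called higher and 1.30% lower, against 13.2% and 13.3% of all genes. Of 77 tested ribosomal protein genes 3 rose and 1 fell, with a median of 0.11, the rises numbered 1, 2, 2 and 1 as each library was left out, and the sign relative to all genes turned when a gene length trend was removed. With library size alone 0 were higher and 28 lower, and the single fall was lost in DESeq2 and as each library was left out. RPS29 had 30294 and 26198 in control and 37299 and 36205 in senescent libraries (log2 0.38, adjusted p = 0.0455, edgeR), and turned to -0.12 with library size alone. Of 53 RNA polymerase I and ribosome biogenesis genes 6 rose and 2 fell, or 11.3% and 3.77% against 13.2% and 13.3% of all genes, and with library size alone 1 was higher and 7 lower. The falls numbered 0 in DESeq2 and as each library was left out. Members that moved included RRP12 at 1.22, NOLC1 at 0.94 and DDX21 at 0.76 upward and UBTF, a polymerase I factor, at -0.65. NCL and POLR1A were at 0.15 and 0.22 without passing (adjusted p = 0.428 and 0.345, edgeR). Of 50 translation genes 12 rose and 1 fell, or 24% and 2% against 13.2% and 13.3% of all genes, with a median of 0.14. EIF4A1 rose from 494 and 469 to 901 and 930, although its whole span lies within the read-through row SENP3-EIF4A1. On library size alone 1 translation gene was higher and 15 were lower, and 4, 5, 3 and 7 were higher and 0 lower as each library was left out.

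Splicing factor genes fell in 11 and rose in 1 of 59 tested cases, with a median of -0.12. The share lower was 18.6% against 13.3% of all genes, and library size alone gave 40 lower and 0 higher. The falls numbered 3, 3, 2 and 5 as each library was left out and 4 in DESeq2. The rises numbered 0, 1, 0 and 0 in the same order and 0 in DESeq2. SNRPA of the U1 particle, HNRNPH3 and HNRNPA1 had log2 fold changes of -1.23, -0.84 and -0.59, and the rise was SRSF5 at 0.45, which turned to -0.05 with library size alone. Nuclear transport genes rose in 5 and fell in 1 of 40, or 12.5% higher against 13.2% of all genes, and with library size alone 2 were higher and 15 lower. The importins KPNA4 and IPO5 had 0.99 and 0.78. Of 21 tested m6A genes, writers, readers and erasers of N6-methyladenosine, 3 fell and 0 rose, or 14.3% lower against 13.3% of all genes. DESeq2 called 0 of them lower, as did each fit with 1 library left out, although 2 were called higher without senescent replicate 2. Fitting only the 4 libraries compared called 3 higher, and library size alone 11 lower. METTL14, a subunit of the methyltransferase, was at -0.76 (adjusted p = 0.0472, edgeR), PCIF1 at -1.19 and IGF2BP3 at -0.40, while METTL3 had 71.2 and 68.3 against 91.5 and 52.6 (log2 0.04, adjusted p = 0.931, edgeR).

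In the fibroblast programs of matrix and contraction more genes fell than rose. Of 26 tested collagen genes 12 fell and 4 rose, and the rises numbered 2, 2, 1 and 3 as each library was left out. COL1A1 and COL1A2, the chains of type I collagen, fell from 8678 and 7646 to 2495 and 3312 and from 6715 and 6459 to 1946 and 2577. COL3A1, the fibrillar chain of type III, fell from 2736 and 2703 to 600 and 896, and COL15A1 had a log2 fold change of -2.65. Both senescent libraries thus lay well below both control libraries for the main fibrillar chains. The rises were COL21A1 (1.99), COL10A1 (1.63), COL7A1 (1.08) and COL6A2 (0.45), the last at -0.05 with library size alone, and COL10A1 lies wholly within NT5DC1. COL4A1 of basement membranes was at 0.32 without passing (adjusted p = 0.148, edgeR).

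Of 51 tested matrix glycoprotein, proteoglycan and crosslinking genes 22 fell and 10 rose, with a median of -0.64, and with library size alone 35 were lower and 7 higher. MFAP4 had -2.12 and LOX, which crosslinks collagen, -0.86 on the log2 scale. Against this, TNC, the gene of tenascin C, rose from 1255 and 1176 to 3898 and 3612. PLOD2, a collagen lysyl hydroxylase, rose from 230 and 237 to 859 and 812. HAS2, a hyaluronan synthase, rose from 5.34 and 5.25 to 73.7 and 66.0. The matrix genes therefore included large changes of both signs, and FN1, the gene of fibronectin, was at 0.25 without passing (adjusted p = 0.210, edgeR).

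Adhesion genes showed the same division, with 15 lower and 9 higher of 35. ITGB1, the beta 1 integrin chain shared by most collagen, laminin and fibronectin receptors, rose from 1701 and 1695 to 5948 and 5486. ITGA5, the fibronectin receptor chain, which lies inside an opposite-strand row, and ITGB3 had log2 fold changes of 1.32 and 1.73, and CD44, the hyaluronan receptor, had 0.98. LAMA3, a laminin chain, had -2.12. VCAM1, NCAM2 and ITGA4 fell, with -2.11, -2.04 and -1.63.

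Contractile and myofibroblast genes fell in 22 and rose in 5 of 43 tested cases, with a median of -0.47, and the falls numbered 15, 18, 14 and 15 as each library was left out and 33 with library size alone. TAGLN, the gene of the actin binding protein SM22, fell from 418 and 413 to 93.9 and 157 and shares 61.4% of its span with other rows. MYLK, myosin light chain kinase, fell from 4012 and 3788 to 1416 and 1766. ACTA2, smooth muscle actin, fell from 228 and 261 to 102 and 142. CNN1, LMOD1 and CSRP2 had log2 fold changes of -1.53, -1.63 and -1.77, SMTN rose by 1.16, and ACTB was at -0.10 (adjusted p = 0.653, edgeR). Targets of YAP and TEAD, which respond to cell tension, fell in 17 and rose in 3 of 28 cases, with a median of -0.67, and the falls numbered 12, 13, 11 and 13 as each library was left out. CYR61 fell by 0.60, as did CTGF by 1.13, and YAP1 itself was at 0.12 (adjusted p = 0.569, edgeR). The 3 rises were NT5E (2.15), FJX1 (1.58) and IGFBP3 (1.38).

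**Figure D4:**
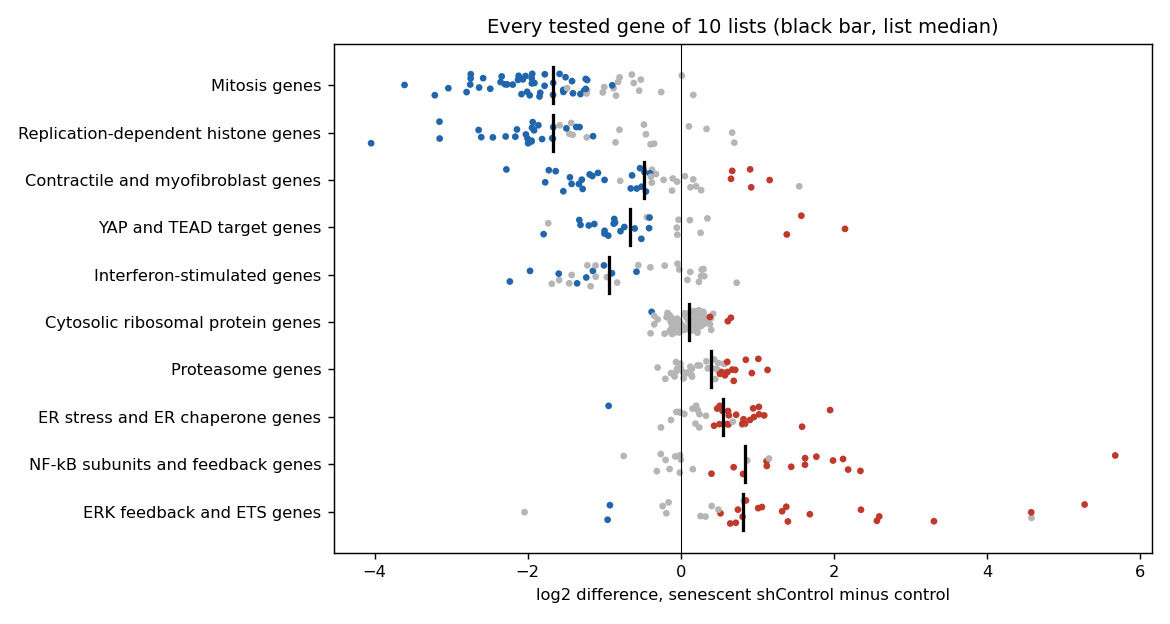
Log2 fold change of senescent shControl over control (horizontal axis) for every tested gene of 10 gene lists, 1 point per gene, with genes called lower in blue, higher in red and the others in grey, and the list median as a black bar. The medians run from -1.67 for mitosis and histone genes to 0.84 for NF-kB genes, and ribosomal protein genes crowd near 0.

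In several pathways of development some genes rose and others fell. In the TGF-beta and BMP pathway 11 genes rose and 11 fell of 43, or 25.6% each way against 13.2% and 13.3% of all genes. The falls numbered 5, 6, 4 and 6 as each library was left out, and library size alone gave 4 higher and 21 lower. BMP6 rose from 0.890 and 5.25 to 120 and 131, beside BMP2 above, and TGFB1 had a log2 fold change of 0.89. SMAD3, the effector of TGF-beta, fell from 2059 and 1846 to 623 and 752, SMAD9 and SMAD6 of the BMP branch had -2.17 and -1.66, and SMAD7, an inhibitor, had 1.11. In the WNT pathway 6 rose and 11 fell of 37, and 7, 9, 6 and 9 fell as each library was left out. The WNT shares were 16.2% higher and 29.7% lower, against 13.2% and 13.3% of all genes. The WNT counts were 4 higher and 18 lower with library size alone. WNT7B rose by 3.55, FZD8 by 2.53 and WNT5A by 1.12 on the log2 scale. The receptors ROR2, FZD2 and FZD7 fell, at -2.50, -1.95 and -1.38, and DKK1, a secreted WNT inhibitor, fell from 13.4 and 21.0 to 3.57 and 3.36.

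NOTCH pathway genes rose in 9 and fell in 3 of 22, and 1, 2, 2 and 2 fell as each library was left out. The NOTCH shares were 40.9% higher and 13.6% lower, against 13.2% and 13.3% of all genes. With library size alone 5 were higher and 8 lower. HEY1 and HES1, both direct NOTCH targets, had almost no reads in control, at 0 and 0 and at 0.890 and 1.75 normalized counts, and 15.5 and 14.5 and 15.5 and 11.2 in senescent libraries. They were at least 5.66-fold and 5.03-fold higher against the floor of 3 counts per library. JAG1, a ligand, and NOTCH3, a receptor, had log2 fold changes of 1.36 and 0.79, NUMB 1.76 and NUMBL -1.24. NOTCH1 was at 0.50 without passing (adjusted p = 0.198, edgeR). Axon guidance genes rose in 8 and fell in 7 of 39, and as each library was left out 5, 5, 4 and 5 rose and 4, 5, 4 and 4 fell. The axon guidance shares were 20.5% higher and 17.9% lower, against 13.2% and 13.3% of all genes. Library size alone gave 5 higher and 22 lower axon guidance genes. SEMA6D rose from 41.8 and 50.8 to 572 and 520 and SEMA7A by 3.31 on the log2 scale, whereas SLIT2, a repellent, and its receptor gene ROBO2 fell by 1.92 and 1.28. Of 28 cyclic nucleotide genes 6 rose and 5 fell, and 3, 3, 3 and 4 fell as each library was left out. The cyclic nucleotide shares were 21.4% higher and 17.9% lower, against 13.2% and 13.3% of all genes. With library size alone 4 were higher and 12 lower. PDE4D and PRKG2 had 2.39 and 3.03, and PDE5A, which breaks down cGMP, fell from 3780 and 4156 to 875 and 1253. Of 39 HOX genes 31 had too few counts. HOXB3 and HOXA3 fell, with -1.17 and -1.58, 1, 2, 1 and 2 fell as each library was left out, and 0 rose, and the HOX median of -0.68 turned positive, to 0.23 above that of all genes, when only genes with 10 counts in every library were kept.

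Gene classes were compared as well. Protein-coding genes, 11505 of those tested, rose in 1491 cases and fell in 1534, close to the shares of all genes, and of 1061 noncoding RNA genes 15.8% rose and 13.7% fell. Of 71 tested small nucleolar and Cajal body RNA genes, which guide modification of ribosomal and spliceosomal RNA, 28 rose and 1 fell, or 39.4% and 1.41%, with a median of 0.97. The fall was SNORD141A. Most of these genes sit inside introns and share the reads of a host gene. Of the 28 that rose 27 lay inside another row, and in 20 of the 27 this row was itself called higher and in 0 lower, so their own synthesis cannot be told apart from that of the host. SCARNA2, a Cajal body RNA gene with a promoter of its own and no shared span, rose from 184 and 222 to 575 and 593. Of 18 SNHG genes, which host small nucleolar RNAs, 8 rose and 0 fell.

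The choice of the noncoding genes that follow was made with their values in view. RMRP, the RNA of RNase MRP, rose from 5147 and 4838 to 11366 and 11107, a log2 fold change of 1.17. RPPH1, the RNA of RNase P, and RN7SL3, a signal recognition particle RNA, had 0.71 and 1.16. All 3 are products of RNA polymerase III, and the reads of RN7SL3 may be shared with near-identical copies. MIR31HG, the host transcript of a microRNA near the CDKN2A locus, rose from 189 and 172 to 3897 and 3336 (log2 4.32, adjusted p = 1.17e-16, edgeR). NEAT1, the architectural RNA of paraspeckles, fell from 13593 and 13703 to 8239 and 8934, and CASC15 and FENDRR had -1.34 and -1.01. MIR34AHG, a p53-responsive host transcript, had 0.92.

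Genes were also grouped by symbol stem, and the stems named here were chosen after their values were seen. Some of their genes, such as KIF4A and EIF4A1, are in the lists above too. Of 106 stems with at least 12 tested genes 7 had no call, among them the 29 mitochondrial ribosomal MRPS genes. Kinesins (KIF) fell in 15 and rose in 2 of 32, or 46.9% and 6.25%. Translation initiation factors (EIF) rose in 13 and fell in 0 of 49, or 26.5% and 0%. Genes with the ATP stem rose in 21 and fell in 6 of 69, or 30.4% and 8.70%. Zinc finger genes (ZNF) rose in 19 and fell in 33 of 430. The ZNF counts are 4.42% and 7.67%, below the 13.2% and 13.3% of all genes. Solute carriers (SLC) rose in 44 and fell in 25 of 219, or 20.1% and 11.4% against the same shares of all genes. All 12 PCDHGA genes fell, but they share one locus and its reads and count as a single observation. By chromosome the share called higher ran from 4.86% on chromosome 22 to 21.9% on chromosome 18, and the share called lower from 5.78% on chromosome 19 to 21.4% on chromosome 18.

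Gene length went with the share of falls. Among protein-coding genes of at most 5 kb 7.69% were lower and 13.5% higher, and among those over 300 kb 31.1% were lower and 17.6% higher. Longer genes carry more counts, and the median mean count rose from 22.6 to 185 over these classes, so a second count used only genes with means of 50 to 200. There the share lower was 9.49% of 158 genes of at most 5 kb and 37.3% of 134 genes over 300 kb, and the share higher was 24.7% and 17.9%. An offset that removes the trend with length left 1896 genes higher and 1593 lower.

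**Figure D5:**
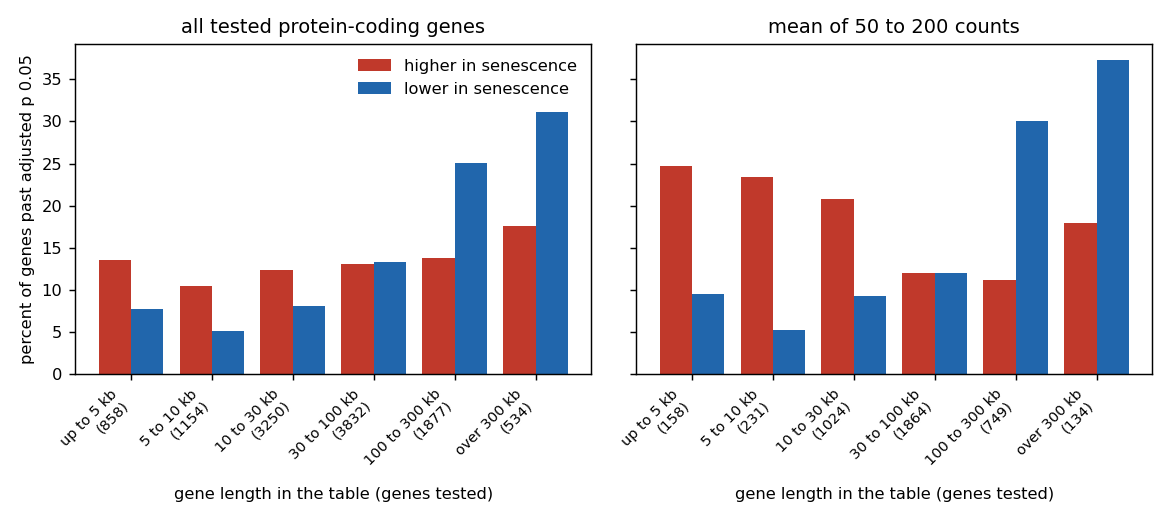
Share of tested protein-coding genes called higher and lower (vertical axis, percent) in 6 classes of gene length (horizontal axis), for all genes and for genes with a mean of 50 to 200 counts. The share lower is largest in genes over 300 kb, 31.1% of all and 37.3% of those with 50 to 200 counts.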

How the data were processed

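fastGRO-seq gave 8 libraries of nascent RNA, of which 2 control and 2 senescent shControl libraries were compared. Per the labels and methods, the authors aligned reads with STAR to hg19 and counted them over gene bodies with HOMER. The deposited values are raw counts per gene and library, without normalization, and the submitters' processing notes also name deepTools 3.3. Samples were grouped by their labels. With 2 libraries per group, no permutation test on a single gene could reach the threshold, and p-values measure the spread between these libraries.

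Counts were tested with edgeR 4.0.16 in R 4.3.3 (filterByExpr with a minimum count of 10, TMM, 1 quasi-likelihood fit over 4 groups, two-sided, Benjamini-Hochberg adjusted p below 0.05). The 21 ribosomal RNA rows entered the fit and were left out of all counts of genes. Standard errors were computed from the log2 fold change and the F statistic. The biological coefficient of variation was 10.6%. For genes with no more than 3 counts in each library of a group, folds are lower bounds against 3 counts per library, and such bounds cover counting error only. Counts were simulated in which 200 genes differed by a log2 fold of 1 in this comparison. The changed genes averaged at least 20 counts, and all genes had the same dispersion. There edgeR called 163 of them in the right direction and 7 unchanged genes among 12481 tested, and DESeq2 called 103 and 1. Some 2-fold changes thus go uncalled at this depth. Recovery below 20 counts was not tested, and the median mean count was 14.5 for histone genes and 15 for small nucleolar and Cajal body RNA genes.

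Genes named are the 12 largest rises and falls (called, protein-coding, mean of at least 100 counts, groups not overlapping, outside the SASP), up to 4 members with the largest changes in each list (mean of at least 20 counts), defining members of each list, and markers of senescence. Some genes that meet these criteria are not reported here. Other called members, small RNAs, noncoding genes, symbol stems and the promoters shown were chosen after their values were seen. The comparison and the gene lists were chosen with earlier results of these data known, and no set test was run. Gene coordinates are those of the table. Alternatives were DESeq2 1.42.0, other normalizations and filters, fewer libraries, a replicate block, an offset for gene length (lowess span 0.3), and subsets of genes. Plots were drawn with matplotlib 3.10.9.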

Additional observations from a re-analysis of the deposited data

How the results depend on the processing

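No gene called in the comparison was called in the opposite direction under any alternative, and the 24 largest changes were called under every one in which they were tested. Against 1695 genes higher and 1702 lower, library size alone gave 752 and 5007, and a minimum size of 1 on the log2 scale left 885 and 915. DESeq2 called 908 lower, and an adjusted p below 0.01 left 1045 lower. Fitting only the 4 libraries compared, without the knockdown groups, gave 2291 higher and 2175 lower of 12104 genes tested. Leaving out 1 library at a time gave 1066 to 1318 genes higher and 763 to 1093 lower, with the fewest without senescent shControl replicate 1. In these fits the lone library of a group is assumed to vary like the other groups. Deviations of same-numbered libraries from their group means correlated at -0.04 to 0.09. With 2 libraries per group and many low counts, this cannot decide whether replicate numbers pair the libraries. A replicate block gave 1715 higher and 1673 lower. Of 774 list medians under alternatives 2 changed sign relative to all genes, counting lists at least 0.1 from it. These were ribosomal protein genes with the gene length offset (-0.0072) and HOX genes with 10 counts in every library (0.23). Of 5514 values of named genes 407 no longer passed the threshold and 7 changed sign, all with library size alone, namely ATM (-0.050), COL6A2 (-0.052), CTNNB1 (-0.0080), GAPDH (-0.10), RPS29 (-0.12), SRSF5 (-0.048) and VIM (-0.053). The cause of these changes was not tested. Library size alone moves the median of all genes from -0.04 to -0.53, so small rises are lost or turn there by construction. Restricting length classes to means of 50 to 200 counts was chosen after seeing the data.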
